A study of Caenorhabditis elegans with 2 samples.

Results

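Of 13858 regions called in AHR-1-GFP chromatin from *C. elegans* embryos, 229 had their summit (the position of highest signal) within 250 bp of an annotated piRNA gene and not within 250 bp of a tRNA, snoRNA, snRNA, miRNA or rRNA gene. These 229 regions, 195 of them on chromosome IV, are described here. AHR-1, a transcription factor of the bHLH-PAS class, is the worm relative of the mammalian aryl hydrocarbon receptor. Chromatin immunoprecipitation with sequencing (ChIP-seq) was done on hermaphrodite embryos of strain OP562, genotype unc-119(tm4063) III; wgIs562, which carries AHR-1 with GFP and FLAG at its C terminus as a transgene in an unc-119 mutant background. The embryos, labelled late, were taken 3.5 h after the egg-bleach synchronization. The 2 biological replicates formed a single group with no second condition, so each p-value below concerns positions along the genome and not variation between animals. The binding was measured on the tagged transgene product in whole embryos, so the cells it came from cannot be told apart.

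The regions were those of the list called on both replicates pooled, before thresholding by IDR (irreproducible discovery rate, which keeps regions that rank alike in replicates). A region in this list is therefore a candidate and not a called peak. Every one of the 229 was 444 bp wide. Their −log10 q values, as the authors' caller gave them, ran from 0.0190 to 0.871, which is a lowest q of 0.135, and none reached a q of 0.05. Among the other 13629 pooled regions, 686 (5.03%) did. All coordinates refer to ce11 (WBcel235) and count from 1.

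piRNAs of *C. elegans*, also called 21U-RNAs, are short germline RNAs that begin with uridine and are bound by the Piwi protein PRG-1, which uses them to recognise foreign and other transcripts. Most are made as separate small transcripts, each with a promoter of its own marked by a short upstream sequence, the Ruby motif, with CTGTTTCA as its consensus and GTTTC as its core. Their genes lie in broad clusters on chromosome IV, where the factors SNPC-4 and PRDE-1 gather at these promoters in germ cells. In the annotation used, all 15363 piRNA genes were 21 nt long and 14784 (96.2%) began with T. Of these genes, 14714 (95.8%) were on chromosome IV, where 14345 lay in 60 bins of 100 kb that held at least 20 piRNA genes each, called dense bins below.

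The piRNA genes nearest to 4 of the regions of highest signal are shown to give the sequences that lay under or beside the summits. Each line gives the 60 bases upstream and then the 21 bases of the piRNA gene in capitals, read 5′ to 3′ on the strand of the gene, from the RefSeq genome of WBcel235. A GTTTC between 30 and 60 bases before the gene is also in capitals.
21ur-6973: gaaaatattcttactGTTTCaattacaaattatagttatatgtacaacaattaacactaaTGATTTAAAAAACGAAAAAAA
21ur-1356: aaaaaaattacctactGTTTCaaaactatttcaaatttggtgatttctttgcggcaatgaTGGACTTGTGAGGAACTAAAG
21ur-13980: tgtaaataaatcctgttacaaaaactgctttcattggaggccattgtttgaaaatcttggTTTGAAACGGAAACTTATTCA
21ur-11529: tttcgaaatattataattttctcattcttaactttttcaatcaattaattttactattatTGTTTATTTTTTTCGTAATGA

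The GTTTC core began 45 bases before 21ur-6973 and 44 before 21ur-1356. It was not in that window before 21ur-13980 or 21ur-11529. All 4 genes began with T. The first window, on the minus strand, was IV:15107521-15107601. The second was IV:16987178-16987258 on the minus strand. The third was IV:16346583-16346663 and the last II:5062035-5062115, both on the plus strand.

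The sequence around the summits themselves is shown for 2 of the 10 strongest regions, both with GCGTG. This is the core of the element bound by aryl hydrocarbon receptors with their partner. Most of the 10 did not hold it within 100 bp of the summit, among them the regions ranked 2 and 3 by signal. It was in 31 of all 229 windows. Each line is the 201 bases centred on the summit, on the plus strand of WBcel235, with GCGTG or its reverse complement CACGC in capitals.
IV:15107319-15107519: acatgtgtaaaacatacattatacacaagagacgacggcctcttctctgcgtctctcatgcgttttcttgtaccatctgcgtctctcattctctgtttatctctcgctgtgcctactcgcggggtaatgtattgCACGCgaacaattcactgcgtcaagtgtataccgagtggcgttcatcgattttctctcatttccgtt
IV:14974610-14974810: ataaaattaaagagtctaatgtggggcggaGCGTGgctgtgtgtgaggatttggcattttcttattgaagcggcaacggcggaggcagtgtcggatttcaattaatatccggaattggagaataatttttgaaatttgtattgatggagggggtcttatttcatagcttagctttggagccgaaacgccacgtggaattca

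Each of these 2 windows held 1 GCGTG. Their GC content was 45.8% and 42.8%.

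Regions at piRNA genes were fewer than the same regions gave when their summits were moved together along each chromosome. In 10000 such circular shifts, which keep the spacing of the regions, the number on chromosome IV was 392.7 ± 65.5 (SD over shifts), with a range of 236 to 557, against 195 observed. The ratio was 0.497, a log2 ratio of −1.01, and the two-sided circular-shift permutation test gave p = 0.0002, the smallest that 10000 shifts can give (0.0003 after Benjamini-Hochberg adjustment over 3 counts). Over all chromosomes, 229 were observed against 438.0 ± 65.8, with the same p (adjusted 0.0003). On the chromosomes other than IV, where 649 piRNA genes lie, 34 regions were observed against 45.3 ± 6.82, a log2 ratio of −0.41 that did not pass the circular-shift permutation test (p = 0.097, adjusted 0.097). Whether the ratios on and off chromosome IV differ was not tested.

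Each replicate's own list gave a deficit on chromosome IV as well. In replicate 1, 417 regions were at piRNA genes there against a shift mean of 677.1, a log2 ratio of −0.70. In replicate 2 there were 484 against 694.8, a log2 ratio of −0.52, and both had p = 0.0002 by the circular-shift permutation test. These lists share their reads with the pooled list. Among the strongest 5000 pooled regions, 43 were at piRNA genes of chromosome IV against a shift mean of 135.9, a log2 ratio of −1.66 (p = 0.0002, circular-shift permutation test).

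Regions of any kind were fewer in the clusters. Dense bins of chromosome IV held a median of 8 pooled regions of any kind and the other bins 12, and over the 174 bins the number of regions and of piRNA genes had a Spearman rho of −0.570, given as a description of neighbouring bins. With shifts of at most 50 kb, which keep the clusters in place, 195 regions compared with 277.5 after shifting. The log2 ratio was then −0.51 (p = 0.0022, circular-shift permutation test).

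**Figure D1:**
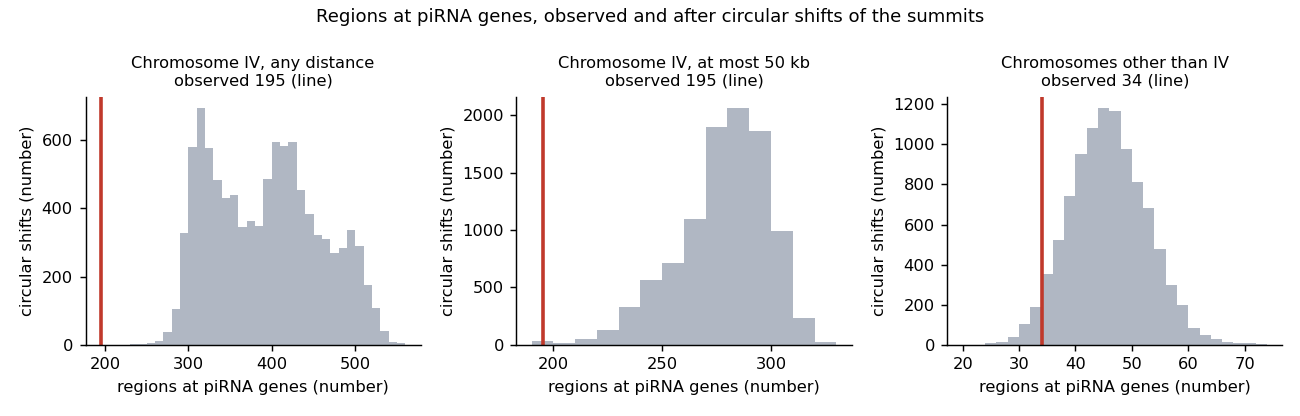
Number of circular shifts (vertical axis) that gave each number of regions at piRNA genes (horizontal axis), for chromosome IV with shifts of any distance, chromosome IV with shifts of at most 50 kb, and the other chromosomes; the red line is the observed number. The observed 195 lies below every shift of any distance, which ranged from 236 to 557, and in the lower tail with local shifts, while 34 lies inside the range of 21 to 72 on the other chromosomes.

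The clusters lay in 4 stretches of dense bins. The stretch from 4800000 to 6699999 of chromosome IV held 2694 piRNA genes and 60 of the regions, with a median signal of 31.2. The stretch from 13500000 to 17299999 held 11534 piRNA genes and 117 regions, with a median of 31.4. Between them, 6800000 to 6999999 held 3 and 9100000 to 9199999 held 1. The 2 long stretches had pooled regions of any kind at 95.3 and 87.1 per Mb. In all, 181 of the 229 regions were in dense bins.

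Within chromosome IV, positions within 250 bp of a piRNA gene carried 58.2 pooled summits per Mb (exact Poisson 95% interval 50.3 to 66.9). Positions of the dense bins farther from piRNA genes carried 125.6 per Mb (112.9 to 139.4) and the rest of the chromosome 132.1 (125.5 to 139.0). These intervals, and the Wilson intervals below, cover counting error only. The low density close to piRNA genes was in introns, at 56.1 per Mb (42.6 to 72.5) against 144.6 farther away in the dense bins, and between genes, at 51.3 (41.5 to 62.7) against 124.3. In coding sequence the values were 91.3 (62.5 to 128.9) and 95.8 per Mb, and their intervals overlapped. Within 50 bp of a piRNA gene, coding sequence of the dense bins covered only 50103 bp and held 2 regions, 39.9 per Mb (4.83 to 144.2). Annotation and distance were not separated in this comparison. Exons of other non-coding genes and UTRs held 6 and 4 of the regions, too few to compare.

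**Figure D2:**
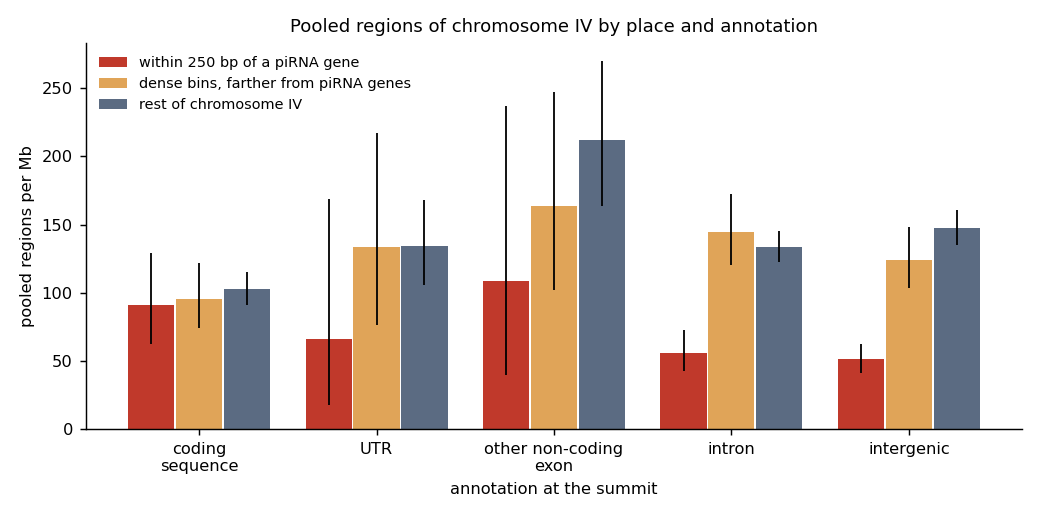
Pooled regions per Mb of chromosome IV (vertical axis, from 0) by annotation at the summit (horizontal axis), for positions within 250 bp of a piRNA gene, positions of dense bins farther away and the rest of the chromosome; lines are exact Poisson 95% intervals. Near piRNA genes the density was 56.1 per Mb in introns and 51.3 between genes, below both other places, while coding sequence stood at 91.3, 95.8 and 102.7.

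In introns and between genes of the dense bins, density was lowest within 100 bp of a piRNA gene and higher at most greater distances. It was 44.4 per Mb (33.0 to 58.3) at 0 to 50 bp, 31.2 at 51 to 100 bp and 57.5 at 101 to 150 bp. It was 89.1 at 151 to 200 bp, 96.0 at 201 to 250 bp and 110.7 at 251 to 500 bp. It was 61.4 (38.5 to 93.0) at 501 to 1000 bp and 145.3 (106.0 to 194.5) at 2001 to 5000 bp. The replicate lists had 92.2 and 113.9 per Mb at 0 to 50 bp, and 181.2 and 185.2 at 251 to 500 bp. Over the same distances the mean GC content rose from 27.9% at 0 to 50 bp to 33.4% at 251 to 500 bp. Density in the pooled list did not follow it at each step. At 51 to 100 bp GC content was 28.6%, with a lower pooled density (19.3 to 47.7) than at 0 to 50 bp. The replicate lists were higher there than at 0 to 50 bp, at 105.6 and 136.8 per Mb. At 501 to 1000 bp GC content was 34.5%, with a lower pooled density than at 251 to 500 bp (83.4 to 144.1). Both replicate lists were also lower there, at 156.4 and 167.6. The pooled intervals overlapped at both steps, and the part of GC content was not tested.

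**Figure D3:**
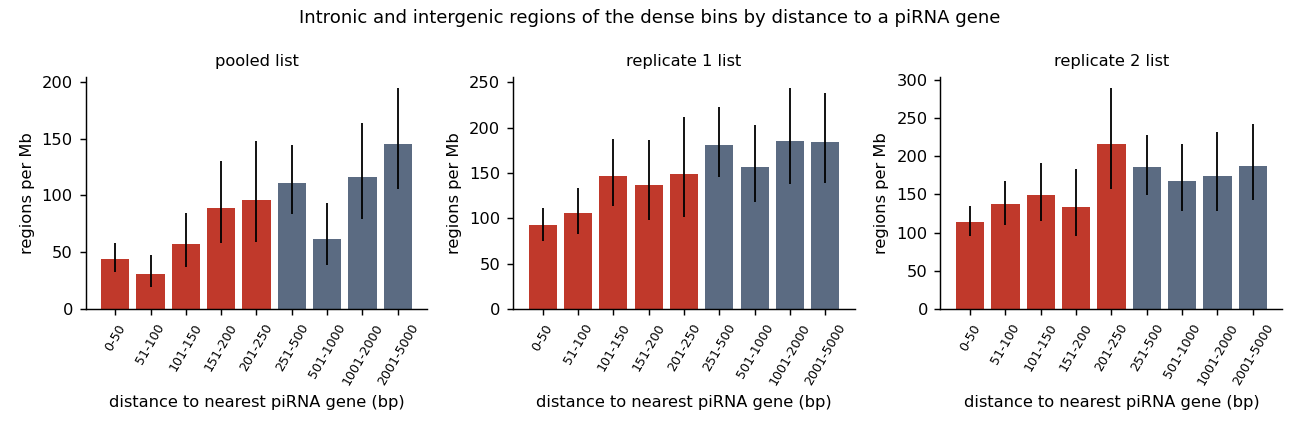
Regions per Mb in introns and between genes of the dense bins (vertical axis, from 0) by distance in bp to the nearest piRNA gene (horizontal axis), for the pooled list and each replicate; red bars are within 250 bp, grey bars farther, and lines are exact Poisson 95% intervals. At 0 to 50 bp the 3 lists stood at 44.4, 92.2 and 113.9 per Mb, below their values at 251 to 500 bp of 110.7, 181.2 and 185.2.

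GC content was lower near piRNA genes, where regions were fewer. Sequence within 250 bp of piRNA genes on chromosome IV averaged 30.1% GC, against 36.0% farther away in the dense bins and 35.6% in the rest. In introns and between genes of the dense bins, 22.9% of positions near piRNA genes had under 25% GC in the surrounding 201 bp, against 8.53% farther away. Positions with 40% GC or more made up 4.11% near piRNA genes and 21.1% farther away. In the pooled list, density rose from 19.0 per Mb near piRNA genes at under 25% GC to 246.9 (164.1 to 356.9) at 40% or more. Farther away it rose from 44.7 to 242.1 (195.7 to 296.3) over the same classes.

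Within equal GC the deficit was smaller, and in the replicate lists it was slight. Near piRNA genes 143 pooled regions were observed in introns and between genes of the dense bins, where the density of farther positions would give 347.0, a ratio of 0.412. Taking that density separately in each of 5 GC classes gave 210.1, a ratio of 0.681. For replicate 1 the ratio went from 0.595 to 0.871 (312 observed, 358.4 by class). For replicate 2 it went from 0.666 to 0.908 (372 observed, 409.5 by class). In regions per Mb, the pooled difference was widest at 35 to 40% GC, with 95.2 (59.7 to 144.2) near piRNA genes and 174.0 (134.6 to 221.4) farther away. In the replicates this class stood at 220.8 against 232.1 and at 207.8 against 232.1. Most positions near piRNA genes were under 30% GC, and this class held 8.38% of them. Pooled density near piRNA genes was 19.0 against 44.7 per Mb under 25% GC and 33.9 against 52.6 at 25 to 30%, with overlapping intervals. Some classes of the replicates were higher near piRNA genes. In replicate 1 this was the class of 40% GC or more, at 388.0 against 301.4 per Mb. In replicate 2 it was the class under 25% (63.3 against 51.1), that of 30 to 35% (171.3 against 156.0) and that of 40% or more (361.6 against 337.4). The intervals overlapped in each of these 4 cases.

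**Figure D4:**
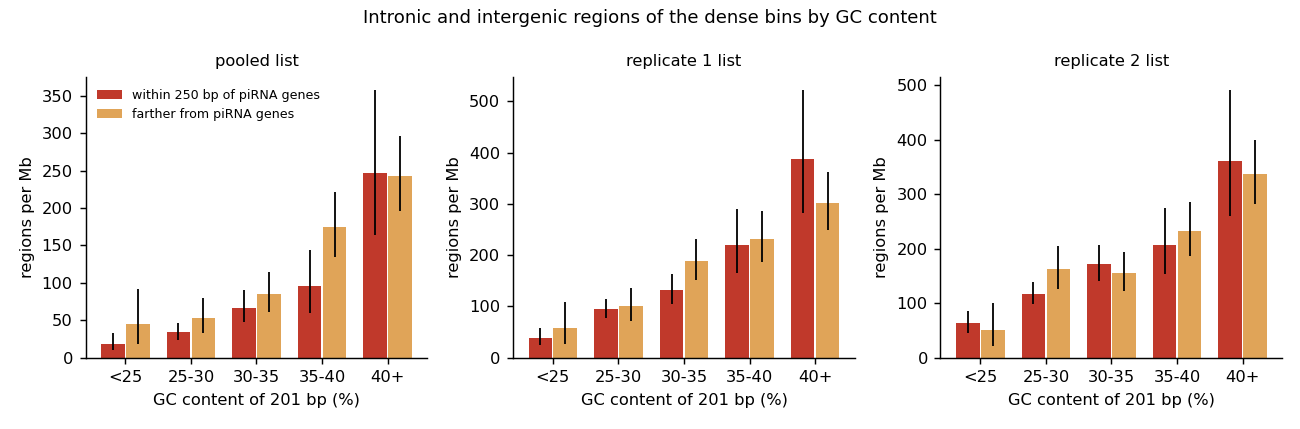
Regions per Mb in introns and between genes of the dense bins (vertical axis, from 0) by GC content of the surrounding 201 bp (horizontal axis), within 250 bp of piRNA genes in red and farther away in orange, for the pooled list and each replicate; lines are exact Poisson 95% intervals. In the pooled list density is higher in each higher GC class in both places, reaching 246.9 and 242.1 per Mb at 40% GC or more, while in replicate 2 farther positions stood at 162.4 at 25 to 30% GC and 156.0 at 30 to 35%.

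The authors' signal value of a region has its own scale in every list and is used here only within one list. The 229 regions were weak, from 26.8 through a median of 31.5 to 53.5, against a median of 32.8 and a highest value of 1026 for the other pooled regions. None was in the IDR list, which holds 3.46% of all pooled regions and 3.33% of those on chromosome IV. The 0 of 229 allows a share of up to 1.31%, taking 3 counts as the limit. The lowest signal of an IDR region was 69.2, and the strongest of the 229 ranked 933.

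Against other pooled regions of the same chromosome, 100 of the 229 (43.7%, Wilson 95% interval 37.4 to 50.1) were above the median. On chromosome IV, 81 of 195 (41.5%, 34.9 to 48.6) were above it, with medians of 31.3 for the regions at piRNA genes and 32.7 for the other 1850. The difference in medians was small beside the spread, since the middle of the former ran from 28.7 to 35.0 (quartiles) and that of the latter from 29.2 to 39.4. The upper end differed more. No region at a piRNA gene passed 59.2, the 95th percentile of the other regions of chromosome IV, which 93 of those did. The other regions include those near tRNA and other small RNA genes, a kind left out at piRNA genes, and 22 of the 93 were of that kind. Without them the 95th percentile was 56.1, which no region at a piRNA gene passed either.

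Off chromosome IV, 19 of 34 (55.9%, 39.5 to 71.1) were above the median of their chromosome. In the replicate lists the shares above the median on chromosome IV were 170 of 417 (40.8%) and 206 of 484 (42.6%). There 1 region of replicate 1 and 3 of replicate 2 on chromosome IV were above the 95th percentile of the others. Intergenic regions at piRNA genes of chromosome IV had a median signal of 32.3 against 33.2 for other intergenic regions, and intronic ones 30.8 against 32.4.

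**Figure D5:**
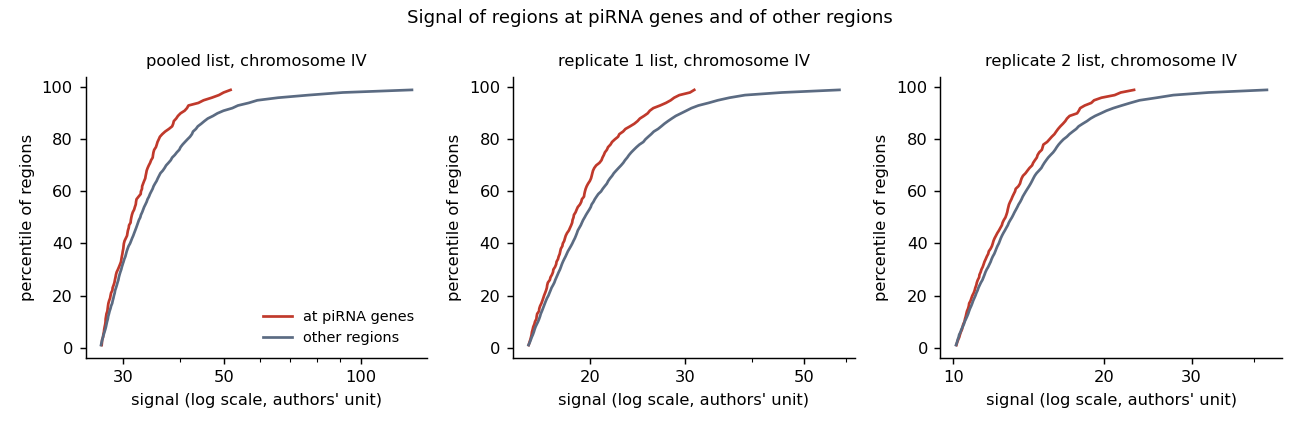
Percentile of regions (vertical axis) by signal in the authors' unit (horizontal axis, log scale, separate for each list) on chromosome IV, for regions at piRNA genes in red and other regions in grey, shown from the 1st to the 99th percentile. The curves start together and part upward, with pooled medians of 31.3 and 32.7 and upper quartiles of 35.0 and 39.4.

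The region of highest signal, IV:15107197-15107640 with a signal of 53.5, had its summit 102 bp from 21ur-6973 and 1356 bp upstream of the coding gene M199.2. Its signal was 33.4 in replicate 1 and 24.4 in replicate 2, at ranks 1260 and 1047. The second, IV:16986959-16987402 with 52.5, had its summit inside 21ur-1356 itself, between genes and 1516 bp upstream of nccd-1, with 34.3 and 16.1 in the replicates. Its rank of 1119 in replicate 1 and 5677 in replicate 2 lay far apart. The third, IV:16346662-16347105 with 51.7, lay in a UTR of C35D6.3, 64 bp downstream of its 5′ end and 221 bp from 21ur-13980, with 27.9 and 21.1.

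The fifth was off chromosome IV, at II:5061742-5062185 with 49.9, and stood 161 bp upstream of smc-5, a subunit of the SMC5/6 complex of DNA repair. It was 131 bp from 21ur-11529 and had 29.5 and 25.0 in the replicates. These 4 regions were overlapped by a region of each replicate, and 3 of them lay in a promoter window, taken as 1500 bp upstream to 500 bp downstream of a coding 5′ end.

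The other 5 of the strongest 10 were all on chromosome IV and found in both replicates, with signals from 46.7 to 49.7. They lay at 21ur-8796 (K01H12.4, whose 5′ end was 5343 bp from the summit), 21ur-6161 (627 bp upstream of H12I19.115), 21ur-4846, 21ur-7035 and 21ur-4010. The region at 21ur-4846, with 48.7, stood 503 bp upstream of noah-2, which encodes a protein of the apical extracellular matrix of the epidermis. The region at 21ur-7035, with 47.9, was 6901 bp upstream of atln-2, an atlastin. The region at 21ur-4010, with 46.7, was 4106 bp upstream of egal-1, a relative of fly Egalitarian. Their replicate signals ran from 22.7 to 34.1 in replicate 1 and from 15.1 to 21.6 in replicate 2.

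Signal differed little with the number of piRNA genes nearby. The 229 had 1 piRNA gene within 250 bp in 125 cases, 2 in 57 and 3 or more in 47, up to 6. Median signals were 32.0, 30.6 and 30.6 in that order. Nearly all regions off chromosome IV, whose median was 34.6 against 31.3 on it, had 1 piRNA gene, and chromosomes were not separated here. The 5 regions with 6 piRNA genes each had pooled signals of 34.5, 33.0, 28.8, 27.8 and 27.1. The strongest, IV:15866949-15867392, was nearest to 21ur-14917 and had 20.2 and 12.3 in the replicates. IV:16216012-16216455, with its summit inside 21ur-11027, had 21.5 in replicate 1 and no overlapping region in replicate 2. IV:14125778-14126221 at 21ur-4375 had none in replicate 1 and 14.8 in replicate 2. IV:14053277-14053720 at 21ur-557 had 20.1 and 11.1, and IV:14486478-14486921 at 21ur-7533 had no region in either. Of these 5, then, 2 were found in both replicates.

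The summit lay inside a piRNA gene in 18 regions and within 100 bp of one in 106, with a median distance of 109 bp. It was upstream of the 5′ end of the nearest piRNA gene in 96 regions and downstream in 133. In 159 regions the nearest piRNA gene had GTTTC 30 to 60 bp upstream, with a median signal of 31.2, and in 70 it had not, with 32.3. Regions of both kinds were found in both replicates in 73 of 159 (45.9%, 38.4 to 53.7) and 42 of 70 (60%, 48.3 to 70.7). Regions off chromosome IV made up a larger part of the 70 than of the 159. Their median signal was 34.6, against 31.3 on chromosome IV. The motif and the chromosome were not separated in these values.

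Counted over genes, 412 of the 15363 piRNA genes (2.68%) had one of the 229 regions. On chromosome IV this was 281 of 10886 genes with GTTTC upstream (2.58%) and 96 of 3828 without (2.51%), so the share was about equal with and without the motif. Elsewhere it was 10 of 278 with the motif (3.60%) and 25 of 371 without (6.74%). Neighbouring piRNA genes can share a region, so these genes are not independent.

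At the edge of the 250 bp window, the regions just inside were IV:6186458-6186901, 249 bp from 21ur-21 with a signal of 35.5, and II:9321713-9322156, 248 bp from 21ur-14760 with 37.9. Just outside were IV:5562871-5563314, 252 bp from 21ur-7222 with 41.8, and IV:13951089-13951532, 252 bp from 21ur-3569 with 29.9. Another 8 regions near a piRNA gene had a small RNA gene within 250 bp and were left out, 6 of them at tRNA genes. The strongest of these, IV:5966940-5967383 near 21ur-5229, had a tRNA gene beside it and a signal of 97.2, at rank 247, and was the only region within 250 bp of a piRNA gene in the IDR list.

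Of the 229 regions, 115 (50.2%, 43.8 to 56.6) were overlapped by a region of both replicates, 69 by one of replicate 1 only, 41 by one of replicate 2 only and 4 by neither. Some of the 229 overlapped one another and shared a replicate region, as IV:14128260-14128703 and IV:14128504-14128947 did. The 229 are therefore not all distinct sites, and the interval treats them as if they were. Among other pooled regions within the same range of signal, 52.5% (51.6 to 53.3) were overlapped in both. The interval for the regions at piRNA genes holds that value.

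Among the 115, the signal ran from 15.3 through a median of 21.1 to 34.4 in replicate 1, and from 10.3 through 13.0 to 25.0 in replicate 2. The 2 signals had a Spearman rho of 0.197, against 0.0574 over the 6606 other pooled regions found in both and within the same range of pooled signal, as a description of regions that share their libraries. The best ranks of the 115 were 1089 and 962. None was among the 479 strongest of either replicate, against 97 and 104 of those 6606. Among the strongest 10% of both lists were 2 of the 115, against 250 of those 6606. Each of these shares was low, and the differences were not tested.

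The annotation at the summits is set beside that of the sequence available near piRNA genes. Of the 195 summits on chromosome IV, 95 (48.7%, 41.8 to 55.7) were between genes, where 55.2% of the positions within 250 bp of a piRNA gene lie, against 34.9% of the other 1850 summits. In introns were 58 (29.7%), where 30.9% of those positions lie, and in coding sequence 32 (16.4%, 11.9 to 22.2), where 10.5% lie. These differences were not tested. In the promoter window of a coding gene were 61 (31.3%, 25.2 to 38.1), against 46.2% of the others. Sequence near piRNA genes was not counted by promoter window. Over all chromosomes, the 76 in a promoter window had a median signal of 33.0 and the other 153 had 31.2.

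The 34 regions off chromosome IV were spread as 8 on I, 5 on II, 6 on III, 6 on V and 9 on X, against shift means of 7.96, 8.04, 6.86, 11.9 and 10.5. After the region at smc-5, the strongest were V:3448293-3448736 with 43.1 and III:4011493-4011936 with 42.7. The former lay 3638 bp upstream of cfz-2, a Frizzled receptor of Wnt signals, and 227 bp from 21ur-15093, with 33.5 and 13.2 in the replicates. The latter lay 621 bp upstream of C36E8.4 and 180 bp from 21ur-14745, with 29.8 and 11.2. All 3 had regions in both replicates.

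Motifs were counted within 100 bp of the summit on both strands. GCGTG was in 31 of the 229 windows (13.5%, 9.70 to 18.6), in 17.9% of other pooled windows of chromosome IV and in 16.9% of all pooled windows. Other windows of the dense bins held it in 22.3% (18.2 to 26.9) and IDR peaks in 40.3%. In windows spread along chromosome IV it was in 6.73% of those centred within 250 bp of a piRNA gene and 9.48% of all. The regions with GCGTG had a median signal of 30.8 and those without 31.8. The 50 strongest of the 229 held 8 of the 31 regions with GCGTG and 42 of the 198 without, a difference that was not tested.

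CTGTTTCA was in 47 of the 229 windows (20.5%, 15.8 to 26.2) and in 1.29% of all pooled windows. On chromosome IV the windows at piRNA genes had it in 24.1% (18.6 to 30.6), and 25.0% of all windows centred within 250 bp of a piRNA gene did. The shorter core GTTTC, which is part of CTGTTTCA, was in 140 of the 229 (61.1%) against 43.1% of all pooled windows and 72.7% of windows near piRNA genes. The motif marks where piRNA genes are, so its share follows from how the regions were chosen. Median GC content was 33.3% at the 195 summits of chromosome IV, 38.8% at other summits there and 30.1% on average near piRNA genes. The part of GC content in these motif shares was not tested.

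Genes that make piRNAs or act with them were looked at through a list of 34, of which 31 were found by name among coding genes. A pooled summit lay in the promoter window in 12 of the 31 (38.7%, 23.7 to 56.2), beside 29.9% of all 19973 coding genes. An IDR summit did in 1, beside 2.58% of coding genes. The interval of the pooled share held its background. No interval was taken for the 1 gene with an IDR summit.

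Among the transcription factors of piRNA genes, snpc-4, which encodes the subunit of the small nuclear RNA activating complex that gathers at the clusters, had a region 1018 bp upstream with a pooled signal of 41.2, and 29.6 and 15.0 in the replicates. Its partner gene prde-1 had none. In precursor processing, tofu-1, which encodes a subunit of the nuclease that cuts piRNA precursors, had a region 334 bp upstream with 60.7, and 26.8 and 35.5 in the replicates. slfl-3, for a Schlafen-like subunit of that nuclease, had 48.2 at 1351 bp upstream, beside a small RNA gene, with 27.9 and 21.1. erh-2, for a subunit of the complex that binds precursors, had 35.0 at 1479 bp upstream, with the summit in coding sequence and 28.9 and 11.4 in the replicates.

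The Argonaute gene prg-1 had no pooled region in that window. The gene with the IDR peak was simr-1, which encodes a Tudor-domain protein of germ granules. Its region lay 510 bp upstream with a pooled signal of 89.8, at rank 289, and 47.1 and 37.5 in the replicates. The other 7 genes of the list with a region, among them pid-3, znfx-1 and hrde-1, had pooled signals from 27.1 to 33.2. Signal below the level of the list was not tested for prg-1, prde-1 or the other genes without a region.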

How the data were processed

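ChIP-seq region lists of 2 biological replicates, the list of both pooled and the IDR list, all on ce11, were used, per the deposited file descriptions and the labels. The authors called regions against a control library that was not analysed here. For the aligner, caller, settings and depth: not given in the sources used here. An anti-GFP antibody is stated in the description, which was followed, although another label gives ahr-1 as the target. Per region, the deposited lists hold the authors' signal and −log10 q values. The signal scale differs between lists.

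Gene positions came from Ensembl release 115 and sequence from RefSeq, both of WBcel235. A piRNA gene and its 250 bp on either side defined the window, without positions within 250 bp of a tRNA, snoRNA, snRNA, miRNA or rRNA gene. Circular-shift permutation tests used 10000 shifts and were two-sided, with a threshold of 0.05 on adjusted p. They were also run on simulated summits drawn evenly along each chromosome, or so drawn and thinned near piRNA genes. Such summits lack the uneven density of these regions, so the simulation does not show how the tests behave on them. Shifts place summits in open and closed chromatin alike. The handling of multiply mapping reads was not given. Densities have exact Poisson and shares Wilson 95% intervals. Summit annotation took coding sequence before UTR, other non-coding exon, intron and intergenic.

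The genes and regions named are the 10 of highest signal, any in the IDR list, the 5 with most piRNA genes, the 3 strongest off chromosome IV, those nearest the 250 bp edge, the 5 pathway genes with the strongest regions, and prg-1, prde-1 and snpc-4. Of the 10, 1 is not reported here. The strongest region left out for a tRNA gene, and pid-3, znfx-1 and hrde-1, were picked with their values already seen. Regions and lists were chosen with earlier results of these data known. The GC classes, the strongest 5000 regions and the local shifts outside exons and promoter windows were added after seeing the data. Python 3.11.15 was used, with scipy 1.17.1, numpy 2.4.6, matplotlib 3.10.9 and pandas 2.3.3.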

Additional observations from a re-analysis of the deposited data

How the results depend on the processing

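The deficit on chromosome IV kept its direction and passed the circular-shift permutation test under all 13 alternatives (windows of 100 and 500 bp, any overlap, midpoints, regions near small RNA genes kept, genes with GTTTC alone, local shifts, stronger regions, positions outside exons and promoter windows, each replicate list, and the 2 shift alternatives added later), with log2 ratios from −1.66 to −0.51 and p from 0.0002 to 0.0022. GC content was not among these, and no test was made within GC classes. Taking density within GC classes, in introns and between genes of the dense bins, moved the ratio of observed to given from 0.412 to 0.681 in the pooled list, from 0.595 to 0.871 in replicate 1 and from 0.666 to 0.908 in replicate 2. Over all chromosomes the log2 ratios ran from −1.50 to −0.48. Off chromosome IV the count missed the threshold at the main setting and under 9 of 13 alternatives, and passed it in the permutation test, without adjustment, with a 500 bp window (log2 ratio −0.38, p = 0.0386), any overlap (−0.63, p = 0.0234) and genes with GTTTC alone (−0.98, p = 0.028). Leaving out a replicate gave −0.41 to −0.30 there, and the list of replicate 2 passed the permutation test (p = 0.0304). The cause was not tested. Of the 195 regions on chromosome IV, 69 (35.4%, 29.0 to 42.3) were above the median signal of other regions of the dense bins. Against all other regions of that chromosome the share was 41.5%. Overlap of 0.5 of the region in both replicates gave 41.0%. Windows of 250 bp on each side gave GCGTG in 23.6% (18.5 to 29.5), beside 32.1% of all pooled windows. On chromosome IV this was 23.1% (17.7 to 29.5), beside 33.3% (31.2 to 35.5) of the other regions, a difference that was not tested. CTGTTTCA was in 41.9% of these wider windows, beside 3.12% of all pooled windows. A promoter window of 500 bp upstream to 200 bp downstream gave 22.6% of pathway genes, beside 15.5% of coding genes. No paired analysis was possible because there was 1 group. Since depth was not given, the weakest region that could be called is unknown.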
